A study of Arabidopsis thaliana with 121 samples.

Results

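The transcripts of 7 genes of post-transcriptional gene silencing were followed: the Dicer-like genes DCL1 (AT1G01040), DCL2 (AT3G03300) and DCL4 (AT5G20320), the Argonaute genes AGO1 (AT1G48410) and AGO2 (AT1G31280), the RNA-dependent RNA polymerase gene RDR6 (AT3G49500) and its partner SGS3 (AT5G23570). They were chosen by locus identifier, with the sense counts of all transcripts of a locus summed, and are 7 of 68157 loci counted in the first experiment (batch A) and of 68159 in the second (batch B). All 7 reached at least 10 reads in at least 3 libraries in both batches. The question was whether their transcripts changed in Arabidopsis thaliana leaves in which transposable elements (TEs) are derepressed by loss of the chromatin remodeller DDM1 or of its activators CDCA7α and CDCA7β.

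Batch A holds 39 libraries of 31-day-old plants, each made from pooled rosette leaves of several plants, in 16 genotypes of the Col-0 background. Of these, 17 libraries carry functional DDM1: 3 of the wild type Col-0, 3 of cdca7α-1, 2 of cdca7α-2, 3 of cdca7β-1, 2 of cdca7β-2, and 2 each of the double mutants cdca7α cdca7β-1 and cdca7α cdca7β-2. The T-DNA of cdca7α-1 lies in the promoter and raises CDCA7α transcription, that of cdca7α-2 interrupts the coding sequence, and the cdca7β alleles were made by CRISPR–Cas9. The double mutant cdca7α cdca7β-1 carries the cdca7α-2 T-DNA, whereas in cdca7α cdca7β-2 CDCA7α was also mutated by CRISPR–Cas9. The other 22 libraries are homozygous for ddm1-2: ddm1 in its first homozygous generation (F2, 2 libraries), in generation G2 (2) and in generation G5 (3), ddm1 cdca7α-1 (2), ddm1 cdca7α-2 in the F2 (2), ddm1 cdca7β-1 (3), ddm1 cdca7β-2 (3), ddm1 cdca7α cdca7β-1 (3) and ddm1 cdca7α cdca7β-2 (2). The F2 and ddm1 cdca7α lines came from crosses, and the other ddm1 cdca7 lines were edited inside a ddm1 stock and had been homozygous for longer, so generation and genotype are partly tied. The lines edited inside ddm1 carry other CDCA7 mutations than the same-numbered lines with DDM1. Batch B holds 82 libraries, each from a leaf of a single 28-day-old plant: WT (5), cdca7α-2 (cdca7_a, 3), cdca7β-1 (cdca7_b, 6), cdca7α cdca7β-3 (cdca7_ab, 4) and primary transformants or their sisters. In cdca7_ab the constructs were full-length CDCA7 (5 plants), sisters without the transgene (CDCA7_no_YFP, 2), dCter (7), dNter (6), C183S_C209S (7), R35A_N42L (6), p6966 (5), p6966_d26nt (7) and p6966_d4nt (2). In cdca7_a they were CDCA7 (3), p6966 (5), p6966_d26nt (5) and p6966_d4nt (4). All batch B plants had functional DDM1.

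In post-transcriptional silencing, RNA is cut and turned over without a change in transcription. Dicer-like enzymes cut double-stranded RNA into small RNAs, and Argonaute proteins load them to find and slice matching transcripts. RDR6, stabilized in its role by the RNA-binding protein SGS3, copies cut or aberrant RNA into new double strands, the substrate of DCL4 and DCL2. In ddm1 plants, transcripts of reactivated TEs are known substrates of this route. Several of these genes are themselves targets of small RNAs: miR168 guides cleavage of AGO1 mRNA, miR162 of DCL1 mRNA and miR403 of AGO2 mRNA, so that a plant with more slicing activity makes less of the slicer.

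The 3 miRNAs and the target site found for each by a search of the spliced mRNA are shown because their precursors are compared with the members further on. The sequences come from the RefSeq annotation of assembly TAIR10.1, are written 5′ to 3′, and capitals mark bases 2 to 8 of the miRNA (its seed) and the bases of the site opposite them.
miR168 (from MIR168A, chr4:10578652-10578672, plus strand): uCGCUUGGugcaggucgggaa
AGO1 site (chr1:17891529-17891549, minus strand): uucccgagcugcaUCAAGCUa
miR162 (from MIR162A, chr5:2634936-2634956, minus strand): uCGAUAAAccucugcauccag
DCL1 site (chr1:27522-27627, plus strand): cuggaugcagaggUaUUAUCGa
miR403 (from MIR403, chr2:19415154-19415174, plus strand): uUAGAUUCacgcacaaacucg
AGO2 site (chr1:11185223-11185243, plus strand): ggaguuugugcguGAAUCUAa
The AGO1 site lies in the coding sequence, in exon 2 of 23, and pairs with miR168 by 18 Watson–Crick pairs and 1 G–U pair, with 2 mismatches. The DCL1 site is joined by splicing from exons 12 and 13 of 20, also in the coding sequence, and pairs with all 21 bases of miR162 around 1 unpaired base of the target, which is the lower-case letter between the capitals. The AGO2 site lies in the 3′ untranslated region, in exon 3 of 3, with 20 Watson–Crick pairs and 1 mismatch. The genes themselves lie at chr1:23121-31227 (DCL1, plus strand), chr3:767880-776214 (DCL2, minus), chr5:6859212-6869307 (DCL4, minus), chr1:17885633-17892632 (AGO1, minus), chr1:11181504-11185396 (AGO2, plus), chr3:18348974-18353673 (RDR6, minus) and chr5:7942908-7946147 (SGS3, plus) of the same assembly.

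Libraries held 2087927 to 4439892 counts in batch A and 1194658 to 5206149 in batch B. Levels are given as CPM, the count of a gene scaled to a common library total after TMM normalization. A 3′-tag library makes a tag per transcript end, so CPM values of different genes were compared without a length term. The genes for which the genotypes are named were counted too shallowly to check most labels: DDM1 had 0 to 5 reads in libraries without and 0 to 4 in libraries with functional DDM1, and CDCA7β had at most 2. CDCA7α had 41 to 66 reads in cdca7α-1 and, in batch B, 2 to 8 in the WT against 0 to 1 in cdca7_ab. TE derepression separated the double mutants and the genotypes without DDM1 from Col-0, but not the single mutants. The mean log2 CPM of the 750 TEs that were upregulated in ddm1 G2 was -0.39 in Col-0 and -0.39 to -0.30 in the single mutants. It was 0.74 and 0.83 in cdca7α cdca7β-1 and -2, and 3.46 to 3.94 in the 9 genotypes without DDM1. These TEs were chosen by ddm1 G2 against Col-0 in the same batch, so the separation of those libraries follows from the choice. Leaf marker transcripts were high throughout, and flower, root and meristem markers stayed under 4 CPM in batch A. In batch B, summed seed markers reached 1568 CPM in the highest plant (median 0) and defence markers 2735 CPM (median 199). In RNA of whole leaves, fewer cells of a type and less RNA per cell cannot be told apart.

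AGO1 was by far the most abundant of the 7 transcripts. In batch A its mean level was 67.2 ± 21.1 CPM (SD, n = 39 libraries), followed by DCL1 at 10.9 ± 3.05 CPM. DCL4 (6.62 ± 1.97), RDR6 (5.83 ± 1.90), SGS3 (5.51 ± 2.32) and AGO2 (4.36 ± 1.55) followed so closely that each differed from the next by less than its SD. DCL2 was lowest at 2.11 ± 0.95 CPM, with only 1 to 16 reads in a library. In batch B, AGO1 stood at 51.8 ± 7.48 CPM (SD, n = 82) and DCL1 at 14.9 ± 3.38 CPM. Below them came SGS3 (7.53 ± 2.20), DCL2 (5.91 ± 1.97), AGO2 (5.57 ± 2.1), RDR6 (5.41 ± 1.46) and DCL4 (4.38 ± 1.40), again with steps smaller than the SD. The batches differ in plant age, material and normalization, so their levels were set side by side and not tested.

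**Figure D1:**
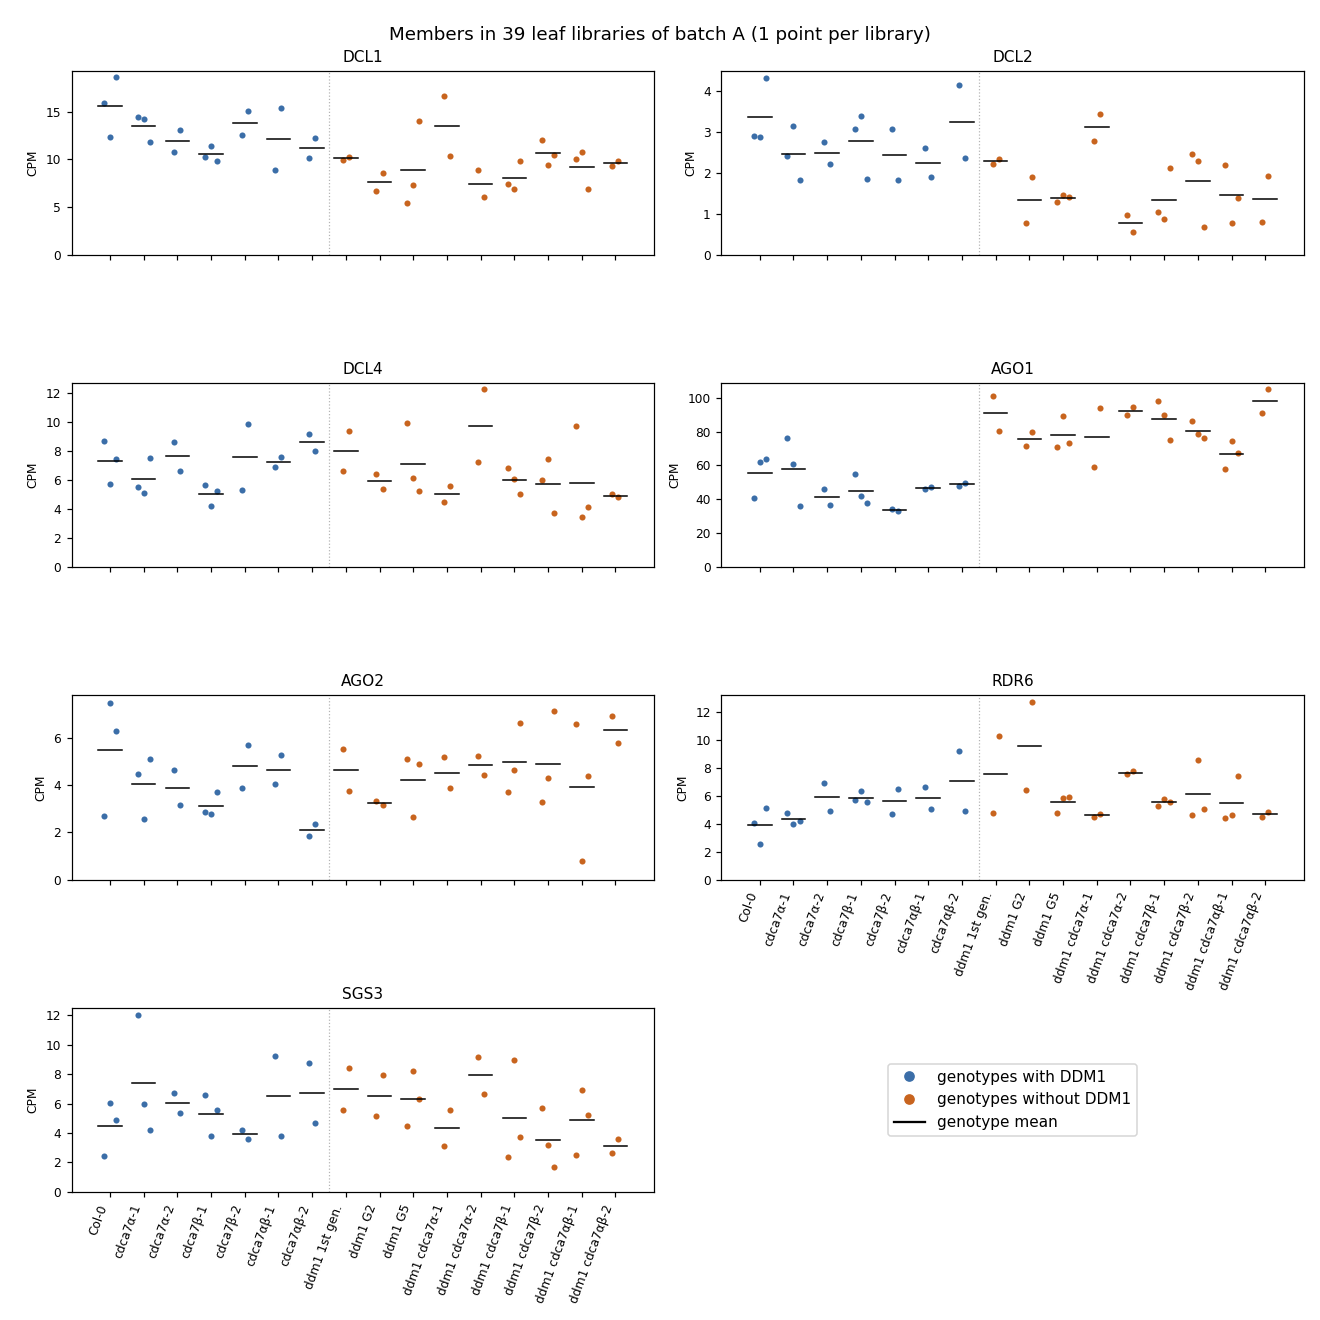
Level of the 7 genes in each of the 39 libraries of batch A (vertical axis, CPM; a point is a library, a black line a genotype mean, blue with and orange without DDM1). AGO1 lay between 33.4 and 76.5 CPM in the 17 libraries with DDM1 and between 57.8 and 105 CPM in the 22 without, whereas DCL1 and DCL2 lay lower without DDM1 with overlapping ranges.

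AGO1, the main slicer of the miRNA and siRNA pathways, was higher in every genotype without DDM1. The 3 Col-0 libraries held 40.7, 62.3 and 63.6 CPM. The ddm1 libraries held 101 and 80.6 CPM in the F2, 71.3 and 80.0 CPM in G2, and 70.8, 89.0 and 73.5 CPM in G5. All 7 ddm1 libraries thus lay above all 3 of Col-0. Across the whole batch, libraries with DDM1 ranged from 33.4 to 76.5 CPM (median 46.4) and libraries without from 57.8 to 105 CPM (median 80.3). The ranges overlapped, but all 22 libraries without DDM1 lay above the median of the 17 with it, and 13 lay above their maximum. The 9 genotype means without DDM1 (66.5 to 97.8 CPM) lay above all 7 with it (33.8 to 57.9 CPM). The mean difference of the genotypes was 1.77-fold (log2 0.83, SE 0.09, edgeR adjusted p = 2.4e-08). The SE and p of this contrast, here and for the genes below, measure the spread of libraries within a genotype. They leave out the spread between lines. The 9 genotypes without DDM1 share the ddm1-2 allele, so they are not independent losses of DDM1. The contrast passed for 42.6% of all 17943 features tested, so that a passing member is not unusual in it, and AGO1 did not reach a 2-fold change. How many of all features separate libraries or genotype means as fully was not counted, here or for the genes below.

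AGO1 rose in F2 ddm1 against Col-0 (log2 0.71, SE 0.25, edgeR adjusted p = 0.0496). In G2 the difference was 0.45 (SE 0.25, adjusted p = 0.25) and in G5 0.49 (SE 0.22, adjusted p = 0.188). Without Col-0 library 1, the lowest of the wild type, the F2 value was 0.55 (adjusted p = 0.164), and without F2 library 2, the highest, it was 0.54 (adjusted p = 0.281). It was 0.23 with limma (adjusted p = 0.694), and with no filter or only the compared genotypes in the fit the call was lost at 0.70 and 0.71 (adjusted p = 0.251 and 0.223). With the 3 generations averaged, a contrast added after the values were seen, AGO1 was higher by 0.55 (SE 0.19, adjusted p = 0.0442), in which 27.4% of all features passed. That call was lost with limma (0.21, adjusted p = 0.605), with no filter (0.55, 0.231) and without Col-0 library 1 (0.37, 0.247). Within the cdca7 mutants, where Col-0 takes no part, the genotypes without DDM1 exceeded those with it by 0.88 (SE 0.10, adjusted p = 1.06e-07; 32.4% of features passed). This difference was larger than that in Col-0 by 0.33, with an interval of -0.09 to 0.75, and the interaction did not pass (adjusted p = 0.66).

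The cdca7α cdca7β double mutants, with their smaller TE derepression, did not share the higher AGO1 level. AGO1 stood at 46.1 and 47.2 CPM in cdca7α cdca7β-1 and at 47.8 and 49.9 CPM in cdca7α cdca7β-2, all within the range of Col-0. The log2 difference from Col-0 was -0.25 (95% interval -0.74 to 0.24) and -0.18 (-0.68 to 0.31). The 3 ddm1 generations exceeded both double mutants by 0.76 (SE 0.18, edgeR adjusted p = 0.00341; 18.7% of features passed), and the 4 single mutants by 0.89 (SE 0.14, adjusted p = 9.51e-06; 26.4% passed). These direct tests between mutants were added after the values were seen.

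AGO2, an antiviral Argonaute that is controlled by miR403, did not pass in any comparison. It ranged from 1.84 to 7.46 CPM with DDM1 (median 3.90) and from 0.77 to 7.12 CPM without (median 4.54). The ranges coincided almost fully, and the difference was 0.24 (SE 0.18, adjusted p = 0.322). With only the most counted AGO2 transcript it was 1.963 (adjusted p = 0.104), a fit in which cdca7α-2 and cdca7α cdca7β-2 both stood at -6.60 against Col-0. The lowest adjusted p of AGO2 against Col-0 was that of cdca7β-1 (0.343). In cdca7α cdca7β-2, where AGO2 stood at 1.84 and 2.35 CPM against 2.68 to 7.46 CPM in Col-0, the difference was -1.33 (unadjusted p = 0.0223 and adjusted p = 0.643 from edgeR). Its counts were split over 3 annotated transcripts, with 64.6% on the most counted, whereas at the other loci a single transcript took nearly all.

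DCL1, the Dicer that makes miRNAs, was lower in ddm1 G2 and G5 than in Col-0. Col-0 held 15.9, 12.3 and 18.6 CPM, F2 ddm1 9.98 and 10.3 CPM, G2 6.69 and 8.57 CPM, and G5 5.44, 7.34 and 14 CPM. Only the last of these reached into the range of Col-0. The log2 change against Col-0 was -1.03 in G2 (SE 0.31, edgeR adjusted p = 0.0245) and -0.81 in G5 (SE 0.27, adjusted p = 0.0549), and -0.62 in the F2, which did not pass (SE 0.31, adjusted p = 0.184). Tested directly, G2 and G5 did not differ from the F2 past the threshold in any of the 7 genes. By edgeR 0 passed and 0 had an unadjusted p under 0.05, beside 0% (G2) and 0.0167% (G5) of all features. These direct contrasts were added after the values were seen. The G2 call was lost without G2 library 1 (-0.86, adjusted p = 0.181). The G5 call was lost without Col-0 library 1 or 3 (-0.79 and -0.67, adjusted p = 0.104 and 0.192) and without G5 library 1 or 2 (-0.56 and -0.69, adjusted p = 0.281 and 0.19). Over all genotypes, libraries with DDM1 ranged from 8.94 to 18.6 CPM (median 12.3) and libraries without from 5.44 to 16.6 CPM (median 9.65). Of the 22 libraries without DDM1, 20 lay below the median of the others and 9 below their minimum. The contrast was -0.43 (SE 0.11, edgeR adjusted p = 0.00283), a 1.35-fold lower level. Col-0 had the highest DCL1 mean of the 7 genotypes with DDM1 (15.6 CPM). Within the cdca7 mutants, where Col-0 takes no part, loss of DDM1 gave -0.34, against -0.82 for the 3 ddm1 generations and Col-0. The value of -0.34 passed, beside 32.4% of all features, but lost its call in 6 of 37 alternatives.

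Of the 9 genotype means of DCL1 without DDM1, 7 lay below all 7 with it. The highest of the 9 was ddm1 cdca7α-1, with 16.6 and 10.3 CPM, and the other was ddm1 cdca7β-2, whose mean of 10.7 CPM lay just above that of cdca7β-1 (10.5 CPM). In ddm1 cdca7α-1 the log2 difference from ddm1 G2 was 0.83, which did not pass (unadjusted p = 0.0225, adjusted p = 0.345, edgeR). The double mutants held 8.94 and 15.4 CPM (cdca7α cdca7β-1) and 10.1 and 12.2 CPM (cdca7α cdca7β-2), differing from Col-0 by -0.35 (interval -0.93 to 0.23) and -0.47 (-1.07 to 0.13). Against the 4 single mutants, the log2 difference of the 3 ddm1 generations was -0.49 (SE 0.17, adjusted p = 0.0444). This call was lost without cdca7α-2 library 2 (-0.41, adjusted p = 0.132), cdca7β-2 library 3 (-0.42, 0.126) or G2 library 1 (-0.43, 0.123), and with no filter on low counts (-0.49, 0.159). Against the double mutants the value was -0.41 (SE 0.21, adjusted p = 0.216).

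DCL2, which cuts double-stranded RNA into siRNAs beside DCL4, was lower without DDM1, at the shallowest depth of the 7 genes. Col-0 held 2.91, 2.87 and 4.30 CPM (13, 10 and 15 reads). The ddm1 libraries held 2.22 and 2.34 CPM in the F2, 0.77 and 1.90 CPM in G2, and 1.28, 1.47 and 1.40 CPM in G5, on 3 to 6 reads each. All 7 lay below all 3 of Col-0. The change was -1.33 in G2 (SE 0.53, edgeR adjusted p = 0.0953) and -1.25 in G5 (SE 0.47, adjusted p = 0.0891), both near the threshold, and -0.55 in the F2 (SE 0.52, adjusted p = 0.509). In G2 the call was lost on leaving out any of the 3 Col-0 libraries (adjusted p = 0.103, 0.129 and 0.198 without library 1, 2 and 3) or G2 library 1 (-0.80, adjusted p = 0.472). In G5 it was lost without Col-0 library 2 or 3 (adjusted p = 0.125 and 0.244) and without any of the G5 libraries (0.201, 0.157 and 0.196 without library 1, 2 and 3). Over the batch, DCL2 ranged from 1.81 to 4.30 CPM with DDM1 (median 2.74) and from 0.56 to 3.44 CPM without (median 1.43). Of the 22 libraries without DDM1, 12 lay below the lowest library with it, and the contrast was -0.77 (SE 0.19, edgeR adjusted p = 0.00209). The highest genotype mean with DDM1 was that of Col-0 (3.36 CPM). Loss of DDM1 within the cdca7 mutants gave -0.73, with the call lost in 1 of 37 alternatives. For the 3 ddm1 generations and Col-0 the value was -1.05, with the call lost in 3 of 18. The highest genotype without DDM1 was again ddm1 cdca7α-1, at 2.77 and 3.44 CPM.

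DCL4, the main producer of secondary siRNAs from RDR6 products, differed little. It ranged from 4.24 to 9.85 CPM with DDM1 (median 6.92) and from 3.47 to 12.2 CPM without (median 6.03). The contrast was -0.14, with an interval of -0.41 to 0.12 (adjusted p = 0.437). Against Col-0 the 3 ddm1 generations gave 0.12, -0.30 and -0.04, each with an interval spanning 0.

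RDR6 was higher in ddm1 F2 and G2 than in Col-0, on few reads. Col-0 held 4.02, 2.58 and 5.16 CPM (18, 9 and 18 reads). F2 ddm1 held 4.81 and 10.3 CPM, G2 6.43 and 12.7 CPM, and G5 4.80, 5.87 and 5.95 CPM. Libraries of the F2 and G5 overlapped those of Col-0, and both G2 libraries lay above them. RDR6 rose by 0.92 in the F2 (SE 0.37, edgeR adjusted p = 0.0871) and by 1.27 in G2 (SE 0.35, adjusted p = 0.0127), and in G5 the value was 0.49 (SE 0.33, adjusted p = 0.415). The F2 call was lost without Col-0 library 1 or 2 (adjusted p = 0.123 and 0.274) and without F2 library 3 (0.29, adjusted p = 0.794), and with limma it was 0.36 (adjusted p = 0.599). The G2 call was lost without G2 library 3, the highest (0.71, adjusted p = 0.367), and with limma on the deposited RPM values (0.77, adjusted p = 0.281). Over the 3 generations the value was 0.89 (SE 0.28, adjusted p = 0.0246). It was lost without Col-0 library 2 (0.68, 0.177) or F2 library 3 (0.68, 0.105), with limma (0.46, 0.323) and with no filter (0.89, 0.142). G5 and G2 did not differ past the threshold (-0.77, unadjusted p = 0.0335, adjusted p = 0.629).

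Over all genotypes of batch A, RDR6 did not pass. Libraries with DDM1 ranged from 2.58 to 9.20 CPM (median 5.06) and those without from 4.40 to 12.7 CPM (median 5.42), and the contrast was 0.18 (SE 0.13, adjusted p = 0.288). The lowest genotype mean with DDM1 was that of Col-0 itself (3.92 CPM). The 6 cdca7 mutants with DDM1 lay above it by 0.53 (SE 0.26, unadjusted p = 0.0532, adjusted p = 0.479; 0.368% of features passed), and loss of DDM1 within the cdca7 mutants gave -0.02 (interval -0.31 to 0.27). The difference between the effects of losing DDM1 in the cdca7 mutants and in Col-0 was -0.91 (SE 0.32, unadjusted p = 0.00804, adjusted p = 0.355), in a test that 0.0502% of features passed, so the effects were not shown to differ. SGS3, which works with RDR6, ranged from 2.46 to 12 CPM with DDM1 (median 5.35) and from 1.70 to 9.17 CPM without (median 5.39), a contrast of -0.10 (interval -0.50 to 0.29).

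Counted over the family, 7 of 21 tests of ddm1 against Col-0 passed an adjusted p of 0.1. Of these, 3 were higher (AGO1 and RDR6 in the F2, RDR6 in G2) and 4 lower (DCL1 and DCL2 in G2 and G5), and 4 were also at least 2-fold. With only the compared genotypes in the fit none of the 7 passed, with no filter only RDR6 in G2 did, and DESeq2 lost RDR6 in the F2 and DCL2 in G2 and G5. In the F2, 2 of 7 members passed, both higher, beside 22.1% of all features (12.6% higher and 9.5% lower, 16.7% at least 2-fold). In G2, 3 of 7 passed, 1 higher and 2 lower, beside 19.8% (12.6% higher, 7.24% lower, 14.6% at least 2-fold). In G5, 2 of 7 passed, both lower, beside 14.4% (9.44% higher, 4.99% lower, 10.5% at least 2-fold). The 3 comparisons share the Col-0 libraries. The median log2 change of the members was 0.12, -0.30 and -0.04 in F2, G2 and G5, and that of all features -0.03, -0.02 and -0.01. In the contrast of genotypes without against with DDM1, 3 of 7 passed beside 42.6% of all features, 1 higher and 2 lower (20.6% and 22% of all features), and none was 2-fold (11.6% of all features). Scaling mattered for this contrast. On the deposited RPM values with limma, the median of all features moved from -0.04 to -0.32 and the share of higher features among those passing from 48.3% to 17.9%. AGO1 then stood at 0.50, which is 0.82 above that median, DCL1 at -0.70 and DCL2 at -0.71, while DCL4 (-0.42) and SGS3 (-0.36) also passed and AGO2 (-0.11) and RDR6 (-0.13) changed sign.

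**Figure D2:**
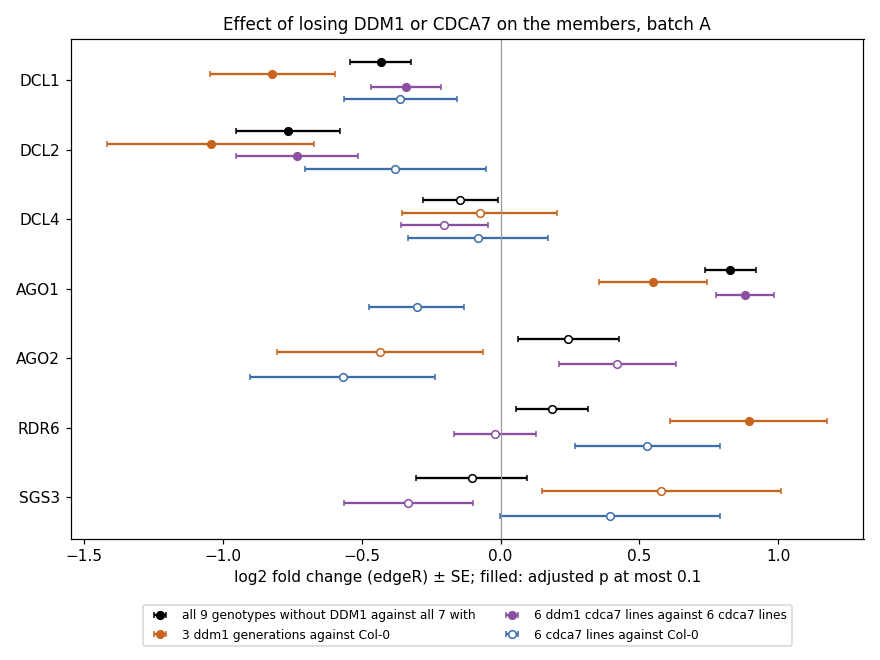
Log2 fold change of the 7 genes (horizontal axis; points are edgeR estimates, bars ± SE, filled points passed an adjusted p of 0.1) in 4 contrasts of batch A: all genotypes without against with DDM1, the 3 ddm1 generations against Col-0, ddm1 cdca7 against cdca7 lines, and cdca7 lines with DDM1 against Col-0. AGO1 lay at 0.83, 0.55 and 0.88 in the first 3 and at -0.30 in the last, and RDR6 was filled only in the ddm1 generations against Col-0.

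No member passed in any cdca7 mutant with functional DDM1. For the double mutants this was 0 of 14 tests by edgeR (2 at an unadjusted p under 0.05, AGO2 and RDR6 in cdca7α cdca7β-2), beside 1.41% and 1.43% of all features. DESeq2 and limma also gave 0. For the single mutants it was 0 of 28 tests (2 at an unadjusted p under 0.05), beside 0.039%, 2.39%, 8.42% and 0.769% of all features in the lines in the order given above, and DESeq2 and limma gave 0. The lowest single-mutant value was AGO1 in cdca7β-2, at 34.2 and 33.4 CPM, below every library of Col-0. Its change was -0.71 (SE 0.26, unadjusted p = 0.00965, adjusted p = 0.214, edgeR), and without Col-0 library 1 it was -0.90 (adjusted p = 0.0778). In cdca7β-1, DCL1 held 10.3, 11.4 and 9.88 CPM, below Col-0, a change of -0.56 (unadjusted p = 0.0434, adjusted p = 0.248).

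Adding cdca7 mutations to ddm1 changed no member past the threshold. Of 42 tests against the ddm1 generation closest to each line, 0 passed by edgeR (3 at an unadjusted p under 0.05), and DESeq2 and limma also gave 0. These comparisons passed for 0.00557% of all features in ddm1 cdca7α-1 and ddm1 cdca7β-1, 0.0111% in ddm1 cdca7β-2 and ddm1 cdca7α cdca7β-2, 0.0167% in ddm1 cdca7α cdca7β-1 and 0% in ddm1 cdca7α-2. All 3 low p values belonged to ddm1 cdca7α-1 against ddm1 G2: DCL1 at 0.83, DCL2 at 1.22 and RDR6 at -1.04 (adjusted p = 0.345, 0.418 and 0.309). RDR6 held 4.50 and 4.73 CPM in this line against 6.43 and 12.7 CPM in G2. AGO1 spanned 57.8 to 74.4 CPM in ddm1 cdca7α cdca7β-1, the lowest of the 9 genotypes, and 90.7 to 105 CPM in ddm1 cdca7α cdca7β-2, the highest.

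Of 10 listed precursors of regulatory small RNAs, 7 were tested and 6 passed in genotypes without against with DDM1, beside 42.6% of all features. MIR162A, whose miRNA targets DCL1, held 12.5, 11.2 and 22.1 CPM in Col-0. It held 5.18 and 2.81 CPM in F2 ddm1, 3.60 and 6.35 CPM in G2, and 5.76, 3.82 and 5.25 CPM in G5. Over the batch it ranged from 10.6 to 24.8 CPM with DDM1 (median 13.6) and from 2.81 to 8.65 CPM without (median 5.09), so that the groups did not overlap. The share of all features that separated these groups as fully was not counted. In the 82 plants of batch B, all with functional DDM1, MIR162A ranged from 6.12 to 26.1 CPM (median 13.8). MIR162A was 2.95-fold lower without DDM1 (log2 -1.56, SE 0.14, edgeR adjusted p = 6.8e-10). It fell in each ddm1 generation against Col-0 (-1.90, -1.62 and -1.62 in F2, G2 and G5, with adjusted p = 0.00359, 0.00788 and 0.00263), and the log2 difference of the ddm1 generations from the double mutants was -1.79 (adjusted p = 2.19e-05). The F2 call was lost without F2 library 3 (-1.55, adjusted p = 0.109), and that of G2 without G2 library 1 (-1.26, 0.129) and with only the compared genotypes in the fit (-1.64, 0.113). DCL1, the target, fell as well.

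MIR168A, whose miRNA targets AGO1, was lower where AGO1 was higher. Col-0 held 7.15, 9.47 and 9.46 CPM, F2 ddm1 4.07 and 1.87, G2 1.80 and 2.86, and G5 3.20, 3.52 and 4.20 CPM. All 7 ddm1 libraries lay below Col-0. Libraries with DDM1 ranged from 4.21 to 9.47 CPM (median 6.12) and those without from 1.11 to 4.79 CPM (median 3.10), the latter on 2 to 18 reads. Of the 22, 19 lay below the minimum of the others, and all 9 genotype means (2.33 to 3.84 CPM) lay below all 7 with DDM1 (5.22 to 8.69 CPM). The highest of the 7 was Col-0, and how many of all features separate as fully was not counted. MIR168A was 1.89-fold lower without DDM1 (log2 -0.92, SE 0.15, edgeR adjusted p = 1.73e-05). In the 82 plants of batch B, all with functional DDM1, it ranged from 1.28 to 8.70 CPM (median 4.42), which covers most of the batch A range without DDM1. Mature small RNAs were not measured in these libraries, which hold polyadenylated transcripts only. A link of MIR168A to AGO1 or of MIR162A to DCL1 was not tested. MIR168B, MIR162B and MIR403 had 0 reads in all 121 libraries.

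Of the TAS transcripts, which RDR6, SGS3 and DCL4 turn into trans-acting siRNAs, TAS3 rose. It held 3.13, 4.59 and 13.8 CPM in Col-0 and 12.6 to 41.9 CPM in the 7 ddm1 libraries, with overlap in a single library of each group. Without DDM1 it was 2.48-fold higher (log2 1.31, SE 0.22, edgeR adjusted p = 2.58e-05), with all 22 libraries above the median of the others. TAS1A (-0.66, adjusted p = 0.0145) and TAS1B (-0.59, adjusted p = 0.0126) fell. TAS1C (-0.31, adjusted p = 0.0951) lay near the threshold and lost its call in 28 of 47 alternatives (-0.22 to -0.37 with single libraries left out), and TAS2 stood at -0.33 (adjusted p = 0.145; -0.61, adjusted p = 0.0467 with limma). The list thus had 1 transcript higher and 5 lower of 7 tested (10 listed), with a median of -0.59 against -0.04 over all features, of which 20.6% were higher and 22% lower. In the double mutants against Col-0, 0 of 7 passed in either line. High TAS3 was not confined to plants without DDM1. In the 82 plants of batch B, all with functional DDM1, TAS3 ranged from 2.16 to 71.2 CPM (mean 22.3). In the WT of that batch it ranged from 7.43 to 40.9 CPM.

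**Figure D3:**
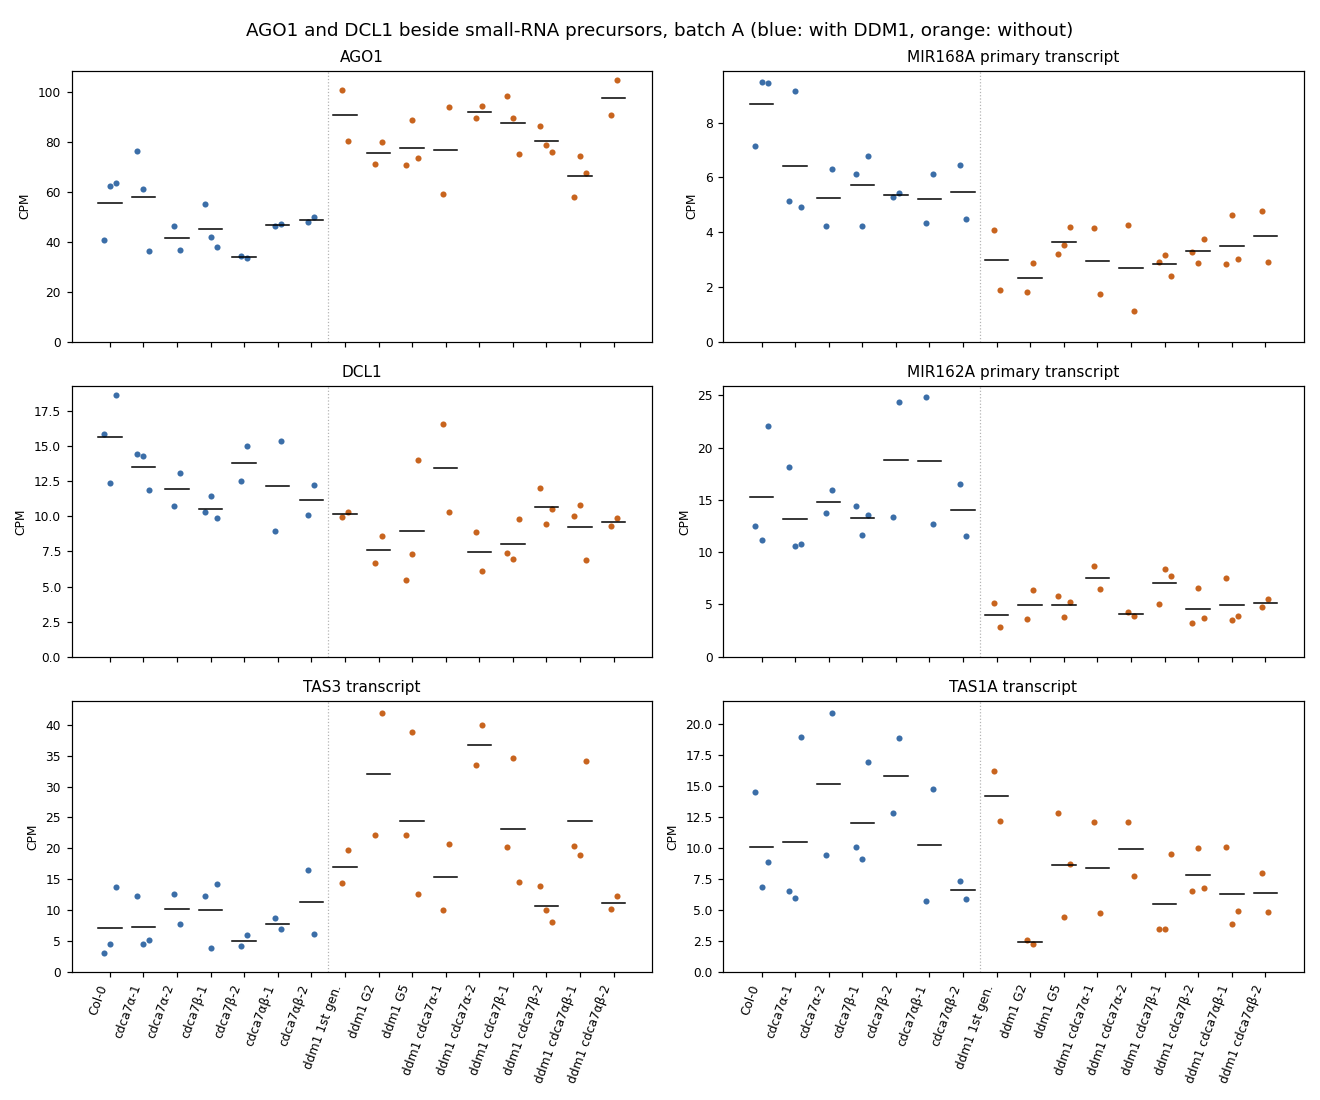
Level of AGO1 beside MIR168A, DCL1 beside MIR162A, and TAS3 and TAS1A, in the 39 libraries of batch A (vertical axis, CPM; a point is a library, a black line a genotype mean, blue with and orange without DDM1). Within this batch, MIR162A lay between 10.6 and 24.8 CPM with DDM1 and between 2.81 and 8.65 CPM without. TAS3 reached 41.9 CPM without DDM1 against at most 16.6 CPM with it in the same batch.

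The wider silencing pathway was read from a list of 40 other genes (other Argonautes, RNA-dependent RNA polymerases, partners of the Dicers, and RNA decay and decapping factors), of which 29 were tested in batch A. In genotypes without against with DDM1, 0 rose and 5 fell, with a median of -0.11 against -0.04 over all features, of which 20.6% were higher and 22% lower. They were AGO7, which binds the miRNA that triggers TAS3 cleavage (-0.77, edgeR adjusted p = 0.0291), AGO10, which competes with AGO1 for miRNAs in meristems (-0.71, adjusted p = 0.00353), SDE5, a cofactor of RDR6 (-0.56, adjusted p = 0.0136), RDR1, an antiviral RNA polymerase (-0.42, adjusted p = 0.021), and SKI2, an RNA helicase of exosome-mediated decay (-0.31, adjusted p = 0.0447). Without cdca7β-2 library 3, AGO7 stood at -0.59 (adjusted p = 0.128) and SKI2 at -0.25 (adjusted p = 0.131), and SKI2 was also lost with no filter (adjusted p = 0.182). In ddm1 G5 against Col-0, 1 of 29 passed, the cytoplasmic exonuclease XRN4 (-0.60, adjusted p = 0.0677), beside 14.4% of all features. XRN4 was lost without G5 library 3 (-0.38, adjusted p = 0.366), Col-0 library 2 (-0.46, 0.283) or Col-0 library 3 (-0.61, 0.109), and with limma (-0.82, 0.23), no filter (-0.59, 0.404) and only the compared genotypes in the fit (-0.60, 0.318). In F2 ddm1, HYL1, a partner of DCL1 in miRNA processing, rose (1.17, adjusted p = 0.0205), and RDR1 (-1.68, adjusted p = 0.00725) and the decapping factor DCP1 (-0.70, adjusted p = 0.0798) fell, beside 22.1% of all features. These were named after their values were seen. None passed with only the compared genotypes in the fit (adjusted p = 0.15, 0.109 and 0.225). HYL1 was also lost with limma (0.61, adjusted p = 0.427) and without F2 library 2 (1.03, 0.144), RDR1 without F2 library 3 (-1.55, 0.11), and DCP1 with no filter (-0.71, 0.263) and without Col-0 library 2 or 3 (-0.60 and -0.60, 0.212 and 0.173) or F2 library 2 or 3 (-0.66 and -0.74, 0.252 and 0.267). In G2 and in both double mutants none of 29 passed.

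Several markers of leaf state passed in the same contrast, beside 20.6% of all features higher and 22% lower. Of 6 photosynthetic leaf markers, 4 rose (CAB2 by 1.67, RBCS1A by 1.44, CAB1 by 1.24 and GAPA by 0.82), and their summed level was 6476 to 31258 CPM with and 18034 to 64947 CPM without DDM1. The senescence marker SEN1 fell (-1.24), the defence marker PR5 rose (1.36) and the guard cell marker KAT1 rose (0.48; 0.13 and not passing on the RPM scale). SAG12 did not pass, nor did 4 of the 5 defence markers, 2 of the 3 guard cell markers and 2 of the 6 leaf markers. The summed senescence markers ranged from 194 to 4931 CPM with and 190 to 2007 CPM without DDM1, and the summed defence markers from 121 to 555 CPM and from 130 to 430 CPM, so both overlapped widely. Their part in the results for AGO1, DCL1, DCL2 and the precursors was not tested. The plastid share of counts spanned 6.4% to 43.9% with and 5.55% to 38.8% without DDM1, and with this share as a further term AGO1 stood at 0.83, DCL1 at -0.43 and DCL2 at -0.76 in the same contrast.

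In single plants with functional DDM1, no member passed on the loss or return of CDCA7. AGO1 held 55.7, 46.6, 62.9, 55.1 and 45.4 CPM in the 5 WT plants and 47.4, 43.4, 38.9 and 51.6 CPM in the 4 cdca7_ab plants, a change of -0.23 (interval -0.52 to 0.06). With full-length CDCA7 it held 46.2 to 64.6 CPM in 5 plants, higher than cdca7_ab by 0.30 (interval 0.00 to 0.59, unadjusted p = 0.0508, adjusted p = 0.771, edgeR). DCL1 held 14.9 to 22.3 CPM in the WT and 13.9 to 19.99 CPM in cdca7_ab (-0.16, interval -0.56 to 0.25). DCL2 ranged from 4.61 to 10.5 CPM in the WT and from 3.85 to 8.49 CPM in cdca7_ab (-0.28, interval -0.90 to 0.33). RDR6 held 3.75 to 6.52 CPM in the WT and 4.58 to 6.94 CPM in cdca7_ab (0.20, interval -0.30 to 0.71). SGS3 held 3.84, 7.83, 9.10, 4.50 and 5.38 CPM in the WT and 7.99, 12.3, 12.2 and 4.16 CPM in cdca7_ab, a change of 0.56 that did not pass (interval 0.02 to 1.1, unadjusted p = 0.0466, adjusted p = 0.981). Of the 21 tests of cdca7_a, cdca7_b and cdca7_ab against the WT, 0 passed by edgeR (1 at an unadjusted p under 0.05) or by DESeq2 and limma, beside 0.314%, 0.0457% and 1.44% of all features. Of the 7 tests of full-length CDCA7 against cdca7_ab, 0 passed (0 at an unadjusted p under 0.05, and 0 by DESeq2 and limma), beside 0.977%.

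The single plants also allowed each member to be read against the TE transcript level of the same plant, using the TEs chosen in batch A. The level formed separate clusters, with 58 plants between -0.53 and -0.19 and 24 plants of 7 genotypes between 0.29 and 0.87, so a slope over all plants mostly sets these clusters against each other. No member slope passed (0 of 7 by edgeR, 1 at an unadjusted p under 0.05, and 0 by DESeq2 and limma), beside 4.36% of all features. RDR6 had the largest slope, 0.19 log2 units per unit of TE level (interval 0.02 to 0.36, unadjusted p = 0.032, adjusted p = 0.282). AGO1 had a slope of -0.04 (interval -0.13 to 0.06), DCL1 -0.03 (-0.18 to 0.11), DCL2 -0.04 (-0.24 to 0.17), DCL4 0.01 (-0.20 to 0.22), AGO2 0.05 (-0.18 to 0.28) and SGS3 0.08 (-0.11 to 0.27). TE levels in batch B stayed far below those of ddm1 in batch A (3.46 to 3.94), so the range over which AGO1 differed was not covered. MIR162A (0.13, adjusted p = 0.558), MIR168A (-0.02, adjusted p = 0.96) and TAS3 (0.01, adjusted p = 0.995) had no slope past the threshold either, nor had any of the 31 pathway genes tested. Of the marker lists, the senescence markers SAG12 (-5.20, adjusted p = 0.000731) and SEN1 (-1.09, adjusted p = 0.0249) had slopes that passed. With genotype as a further term they stood at -3.37 and -0.26 (adjusted p = 1 for both), and SAG12 was also lost with limma (-0.11, 0.918), the replicate block (-1.94, 0.453) and the plastid share as a term (-2.36, 0.317). SAG12 reached 1486 CPM in its highest plant, against a mean of 19.1 CPM (SD 164) over the 82 plants. The slope was not refitted without that plant.

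**Figure D4:**
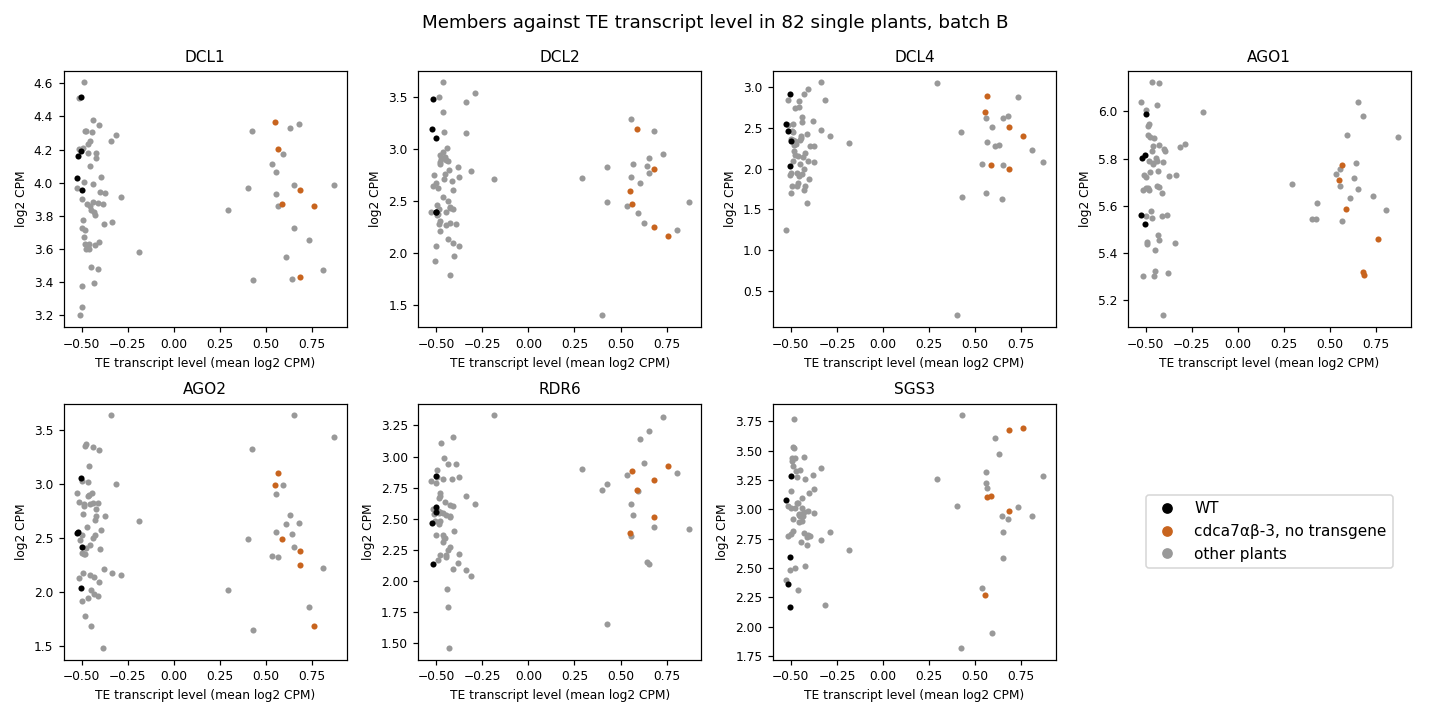
Level of the 7 genes (vertical axis, log2 CPM) against the TE transcript level (horizontal axis, mean log2 CPM of the 750 TEs) in the 82 single plants of batch B, with the WT in black, cdca7α cdca7β-3 plants without a transgene in orange and all other plants in grey. The plants form a cluster of 58 at low and of 24 at higher TE level, and no gene had a slope that passed.

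Across the 17 genotypes of batch B the genotype means of each member spanned little. AGO1 ranged from 45.3 CPM in cdca7_ab to 56.8 CPM in cdca7_a with p6966_d26nt, and DCL1 from 11.9 CPM in cdca7_a with CDCA7 to 17.5 CPM in the WT. RDR6 ranged from 4.05 CPM in cdca7_a with p6966 to 6.79 CPM in cdca7_ab with dNter. Several of these means rest on 2 or 3 plants, and the differences between constructs were not tested.

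The genes most like each member over genotype means were found among 8320 features with a mean of at least 10 CPM in both batches, ranked by the smaller of the Pearson correlations over the 16 genotypes of batch A and the 17 of batch B. These correlations describe genotype means that share libraries and depth. For DCL1 the closest were BEL10 (AT1G19700; 0.84 in A and 0.75 in B), a homeodomain gene, and SC35 (AT5G64200; 0.74 and 0.74), a splicing factor gene. For AGO1 they were CAT8 (AT1G17120; 0.65 and 0.68), a cationic amino acid transporter gene, and PP2A-1 (AT1G59830; 0.61 and 0.62), a phosphatase gene. For DCL2 they were TAF2 (AT1G73960; 0.75 and 0.77) and AT1G02890 (0.72 and 0.72), and for DCL4 AT5G23760 (0.89 and 0.68) and CcdA (AT5G54290; 0.64 and 0.58). For RDR6 they were AT5G10560 (0.61 and 0.71) and AT4G02580 (0.59 and 0.68), for SGS3 NDF5 (AT1G55370; 0.70 and 0.76) and AT3G10405 (0.68 and 0.68), and for AGO2 AT5G51300 (0.54 and 0.58) and POLD4 (AT1G09815; 0.53 and 0.58).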

How the data were processed

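The libraries are 3′-tag mRNA-seq, which counts a tag at the end of each polyadenylated transcript, with molecular identifiers. Per the submitters' methods, the authors collapsed identical molecules, mapped reads to TAIR10 with STAR 2.7.11a and counted them with Salmon 1.10.1 on AtRTD3 transcripts and TAIR10 TEs, sense and antisense apart. The authors deposited estimated counts for every transcript, made by Salmon and not normalized. Their second kind of table, a signal in RPM, was scaled by the authors to the total of each library and was deposited with a row for each locus and its antisense. Per the methods, replicates of batch A are pools of leaves and those of batch B are single plants.

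Here the sense counts were added up for each locus and rounded. The fits used 17943 features in batch A and 17510 in batch B, those reaching 10 reads in 3 libraries or more, and edgeR 4.0.16 (TMM, quasi-likelihood test) in R 4.3.3, with all genotypes of a batch in a single fit and Benjamini-Hochberg adjustment over all features. The limit for passing was an adjusted p of 0.1, and 2-fold means an absolute log2 fold change of 1 or more besides. Intervals are 95% (log2 change ± normal quantile × SE). DESeq2 1.42.0 and limma 3.58.1, the latter on log2(RPM + 1), were alternatives, beside other size factors, no filter, no organelle transcripts, fits of only the compared genotypes, a replicate block and single libraries left out. The plastid share as a term and single transcripts in the tests were added after seeing the data, as were the contrasts named so. The members and lists were chosen with earlier results of these data known. Named genes are the members, the passing genes of each list (at most 5) and the 2 genes most like each member, and TAS1C, TAS2 and the pathway genes of the F2 were named after their values were seen. Figures were drawn with matplotlib 3.10.9 in Python 3.11.15. The fits were tested on simulated counts that held no spread between lines, so that test did not cover such spread. Gene names, miRNAs and sites come from RefSeq TAIR10.1.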

Additional observations from a re-analysis of the deposited data

Results flagged for a closer look

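In batch B, 8 of 91 tests by Dixon's criterion flagged a plant far from the others of its genotype, where chance marks about 1 in 20 tests. Each test took 1 gene in 1 genotype with at least 4 plants. The genes were read in the same plants, so the tests are not independent. DCL1 stood at 19.99 CPM in plant 5 of cdca7_ab (others 13.9 to 14.9 CPM), at 8.86 CPM in plant 2 of R35A_N42L (others 15.2 to 18.4) and at 16.5 CPM in plant 5 of cdca7_ab with p6966_d26nt (others 10.5 to 12.8). AGO1 stood at 43.0 CPM in plant 1 of cdca7_ab with p6966 (others 54.8 to 58.8). AGO2 stood at 6.43 CPM in plant 3 of cdca7_a with p6966_d4nt (others 4.47 to 4.67) and at 10.2 CPM in plant 3 of R35A_N42L (others 3.13 to 5.33). RDR6 stood at 7.99 CPM in plant 3 of cdca7_b (others 4.64 to 5.89), and SGS3 at 13.3 CPM in plant 3 of C183S_C209S (others 7.04 to 8.93).

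The effect on AGO1 differed between mutants under a direct test. It was higher in the 3 ddm1 generations than in the cdca7α cdca7β double mutants by 0.76 and than in the single mutants by 0.89 on the log2 scale, and DCL1 differed from the single mutants by -0.49, a call that was lost in 4 of 25 alternatives (adjusted p up to 0.159).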

How the results depend on the processing

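AGO1, DCL1 and DCL2 kept direction and threshold in genotypes without against with DDM1 under all 47 alternatives (AGO1 0.50 to 0.88, adjusted p = 1.18e-19 to 0.0013; DCL1 -0.70 to -0.36, adjusted p = 0.000272 to 0.0157; DCL2 -0.85 to -0.69, adjusted p = 0.000197 to 0.0225). The count there was 3 throughout single-library omissions (3 to 3) and 5 with limma. The 7 passing tests of ddm1 against Col-0 were less stable: 4 with DESeq2, 3 with limma, 1 with no filter, 4 with the replicate block, 0 with only the compared genotypes in the fit, and 3 to 6 with single libraries left out (3, 4 and 4 without Col-0 library 1, 2 and 3). The cause was not tested, beyond the larger number of features tested with no filter and the fewer libraries in the smaller fits. Where an omission left a single library of a genotype, that library was assumed to vary like the other genotypes. Single-mutant calls ranged from 0 to 1 with single libraries left out (1 without Col-0 library 1). Signs reversed for AGO2 (-0.11) and RDR6 (-0.13) with limma and for SGS3 with a library left out (-0.18 to 0.0035, the last without cdca7α cdca7β-1 library 2). Among the slopes they reversed with genotype as a further term for DCL2 (0.078), DCL4 (-0.10) and AGO1 (0.0049), and for DCL4 with limma (-0.0064). None of these passed. The added contrast of AGO1 in the ddm1 generations against the double mutants kept its call in 19 of 19 alternatives (0.67 to 0.81, adjusted p = 0.000214 to 0.0745). AGO2 fell from 4.36 to 2.76 CPM in batch A and from 5.57 to 3.27 CPM in batch B when only its most counted transcript was used.

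Same-numbered libraries did not deviate together (mean correlation -0.0033 over 237 pairs in batch A and 0.0024 over 511 in batch B; 71 and 138 pairs over 0.1), so the replicate block is not a pairing. Beside the 4 above, the block left 3 passing members without against with DDM1 and 0, as without it, in the cdca7, ddm1 cdca7 and single-plant comparisons and the slope. It ended no call of a member in the added contrasts.

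The share of all features that passed moved by over 1.5 times with only the compared genotypes in the fit (F2 from 22.1% to 10.8%, G2 from 19.8% to 7.93%, G5 from 14.4% to 8.86%, cdca7α cdca7β-1 from 1.41% to 0.552%, cdca7α cdca7β-2 from 1.43% to 0.652%, cdca7α-2 from 2.39% and cdca7β-1 from 8.42% to 0), with limma in cdca7_a (0.314% to 0.0782%) and in the ddm1 generations against the single mutants (26.4% to 56%) and double mutants (18.7% to 10.2%), and in the slope (764 features against 249 with genotype as a term and 2008 with no filter). With no filter, ddm1 cdca7α-1 against G2 passed for 913 features in place of 1. The share of higher features among those passing went from 57% to 26.2% in the F2 and from 69% to 96.7% in cdca7β-1 with limma. Depth limits the less counted members most, DCL2 with 1 to 16 reads in a batch A library.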

Other observations

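Reads antisense to the members, which the authors counted apart, were found for all 7 loci in both batches, in 1 to 30 of the 39 libraries of batch A and in 10 to 70 of the 82 of batch B. AGO1 had antisense values above 0 in 30 of 39 libraries of batch A and 67 of 82 of batch B, RDR6 in 19 and 70, and DCL1 in 15 and 10. The highest antisense value of AGO1 in batch A was 29.6 RPM, against 12.1 RPM at most in Col-0. In batch B the highest for RDR6 was 28.0 RPM, against 22.3 RPM at most in the WT, and for DCL1 it was 23.0 RPM. Only the sense rows of the RPM values were checked against the counts, with a largest difference of 0.0009 RPM in batch A and 5.2 RPM in batch B. Antisense values were therefore not compared with sense levels.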
